A study of Saccharomyces cerevisiae with 21 samples.

Results

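The 36 nuclear genes described here encode subunits of the mitochondrial respiratory chain and of the ATP synthase of the budding yeast Saccharomyces cerevisiae. They were taken as a list by name: the cytochrome c isoforms (CYC1 and CYC7), 4 subunits of complex II, 9 of complex III, 9 of complex IV and 12 of the ATP synthase, out of 6692 genes in the count table. All 36 were among the 6254 genes with enough counts to be tested. Poly-adenylated RNA was sequenced (mRNA-seq) from 21 libraries in 7 groups of 3. Cells of the fission yeast Schizosaccharomyces pombe were added to every sample in a defined ratio as a spike-in. The groups were an untreated WT strain and 3 strains in which a protein can be degraded with the auxin IAA. Sth1 was the target in STH1-AID, Rap1 in RAP1-AID, and both in the double strain, STH1-AID RAP1-AID. Each was given 500 µM IAA or the same volume of its solvent DMSO. Sth1 is the ATPase of the chromatin remodelling complex RSC, and Rap1 is a general regulatory factor that binds promoters. All strains were MATa derivatives of BY4741 (his3D1, leu2D0, met15D0, ura3D0) carrying RPB3-3xFLAG::NATMX, and were grown exponentially in YPD at 30 °C. The degron strains also carried LEU2::pGPD1-osTIR::LEU, which makes the plant F-box protein that targets a tagged protein, with STH1-3V5-IAA7, RAP1-3V5-IAA7 or both. The WT strain had neither osTIR nor a degron tag, and no untagged cells received IAA, so an effect of IAA itself and of loss of the protein cannot be told apart.

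In mitochondria, electrons from succinate (complex II) and NADH pass through coenzyme Q to complex III, then through cytochrome c to complex IV, which reduces oxygen. The proton gradient made by complexes III and IV drives the ATP synthase. S. cerevisiae has no proton-pumping complex I. Glucose, as in YPD, represses most of these genes, and the Hap complex (HAP2, HAP3, HAP4 and HAP5), which binds CCAAT sequences, activates many of them. Cytochrome c and subunit 5 of complex IV each come as a main form (CYC1, COX5A) and a form known from low oxygen (CYC7, COX5B).

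Most of these promoters held a CCAAT sequence. In the 300 bases before the start codon, CCAAT was found on one strand or the other in 31 of the 36 genes (86.1%), against 41.8% of 5985 yeast promoters of the same length. CYC1, CYC7, CYT1, COR1 and COX4 lacked it. It was present in 10 of the 11 genes that fell after Sth1 depletion and in 21 of the other 25. A match is a description of letters and not a binding site. The CCAAT nearest the start codon is shown, because the presence of these letters was shared by genes whose RNA fell and genes whose RNA did not. The first 5 genes below (ATP20, COX5A, SDH3, ATP5 and COX9) had the largest falls in STH1-AID among genes with the motif, and the other 5 (QCR6, QCR7, ATP7, QCR2 and COX6) had the smallest changes. Sequences are from the RefSeq genome of build R64, the build of the count table, read 5′ to 3′ on the strand of the gene, and the capitals mark CCAAT or its reverse complement ATTGG.
ATP20 (chrXVI:599689-599718, plus strand): ttcttattcctgATTGGctgaaagaaaata
COX5A (chrXIV:531568-531597, plus strand): tcctcgtttgtgATTGGccctacgttttgc
SDH3 (chrXI:179626-179655, plus strand): aaccaaaaattgCCAATcacaagctctaag
ATP5 (chrIV:1058960-1058989, minus strand): caatttcaaacgCCAATtgttaactttgtg
COX9 (chrIV:334526-334555, minus strand): tactgcaacctgATTGGcccgctaccacga
QCR6 (chrVI:224858-224887, minus strand): cttaagggcagtATTGGttggcgcttattt
QCR7 (chrIV:1496712-1496741, minus strand): atcttgttttgaCCAATcaggagcgacgcg
ATP7 (chrXI:408149-408178, minus strand): gtaaaagatacaCCAATtaccacttgctgc
QCR2 (chrXVI:919184-919213, plus strand): attcccaacgaaCCAATagaaggcccgccc
COX6 (chrVIII:209478-209507, plus strand): aaaagggacctaATTGGtccggtcaaagca
The marked letters began between 29 bases (SDH3) and 169 bases (ATP20) before the start codon in the first 5 genes, and between 106 (QCR6) and 215 (COX6) in the other 5. Of the other letters searched on both strands, CGCGC, known from binding by RSC, was in 10 of the 36 promoters and 717 of the 5985, and TTACCCG, the Reb1 type, in 11.1% and 7.92%. Runs of 7 A or T bases were in 38.9% and 52.6%. The Rap1-type letters ACCCNNACA were in 0 of the 36 and in 3.12% of all promoters. The Abf1-type motif (CGT and TGA set 6 bases apart) was in 8 of the 36 (22.2%, against 15.0% of all). It was in 0 of the 11 genes that fell after Sth1 depletion and in 8 of the other 25. These are small counts, and a link between any motif and the falls was not tested.

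The libraries held 20901972 to 29090954 S. cerevisiae counts and 1144357 to 3486097 S. pombe counts, and a floor of 3 counts corresponded to 0.103 to 0.144 CPM (counts relative to the library total). No 2 replicates agreed within counting noise. Values below are normalised counts, obtained by dividing the raw count by a size factor computed from S. pombe genes, so a fall common to all genes remains visible. WT replicate 1 stood apart from the other WT libraries: its counts differed from theirs with a chi-square per degree of freedom of 67.9 and 52.6, against 7.48 between replicates 2 and 3. The replicates of the double strain also agreed poorly, at 31.45 to 69.18 between pairs with DMSO and 38.81 to 94.04 with IAA. MET17, the gene named in the met15D0 label of all strains, had 1 to 16 raw counts across the 6 libraries of STH1-AID. The other 15 libraries held 2373 to 7502, which went against that label in the double strain, in RAP1-AID and in WT. Differences between STH1-AID and another strain therefore cannot be told apart from this difference between the strains, while each IAA against DMSO comparison was made within 1 strain. The mRNA of the tagged genes does not report loss of the protein. STH1 gave 12800 ± 5250 normalised counts in STH1-AID with DMSO and 13700 ± 2860 with IAA, and RAP1 gave 5630 ± 712 and 6100 ± 258 in RAP1-AID (SD, n = 3 each). The replicates were called biological by the submitters, without saying whether they were grown on separate days.

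In untreated WT cells, the 36 genes spanned a wide range of levels per length. ATP2, the catalytic beta subunit of the ATP synthase, was highest with 21300 ± 9980 normalised counts per kb (SD, n = 3). SDH1, the flavoprotein of complex II, gave 917 ± 428 per kb, and CYC7, the minor cytochrome c, was lowest with 58.7 ± 11.8 per kb. Ordered by level, 34 of the 35 neighbouring pairs overlapped between their 3 libraries, and SDH1 with CYC7 was the pair that did not. These ranges include shifts shared by all genes of a library, so an overlap does not mean that the order changed between libraries. RIP1, for example, was above CYT1 in each WT library (1100, 3050 and 1900 per kb against 918, 2540 and 1450), and this pair overlapped. Together the 36 genes took 0.507 ± 0.101% of the S. cerevisiae counts in WT.

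Depletion of Sth1 left the complexes with different levels of RNA for their subunits. Complex IV genes were mostly lower, with 7 of 9 called, while 0 of 9 complex III genes were called in either direction. Genes were called at an adjusted p under 0.05 (edgeR, over all 6254 genes) and a log2 fold change beyond 1 in size. Over all complexes, 11 of the 36 genes fell and 1 rose. Among all genes tested, 42.7% fell and 4.69% rose, so the share of the 36 that fell (11 genes) was below that of all genes. The median log2 fold change of the 36 was -0.21, against -0.84 over all genes tested. By complex the medians were -0.03 for complex III, -0.28 for the ATP synthase, -0.49 for complex II and -1.21 for complex IV. TMM scaling removes the shift shared by most genes: the median of all genes went to 0.05 here, and from -0.26 to 0.07 and from -0.67 to 0.01 in the IAA comparisons of RAP1-AID and the double strain. With it the same 36 split into 6 lower, all of them among the 11, and 6 higher (15.4% of all genes each way). On that scale complex IV had a median of -0.35, and complex III 0.81. Relative to the median of all genes, complex IV thus stood at -0.37 and complex III at 0.82 on the spike-in scale.

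**Figure D1:**
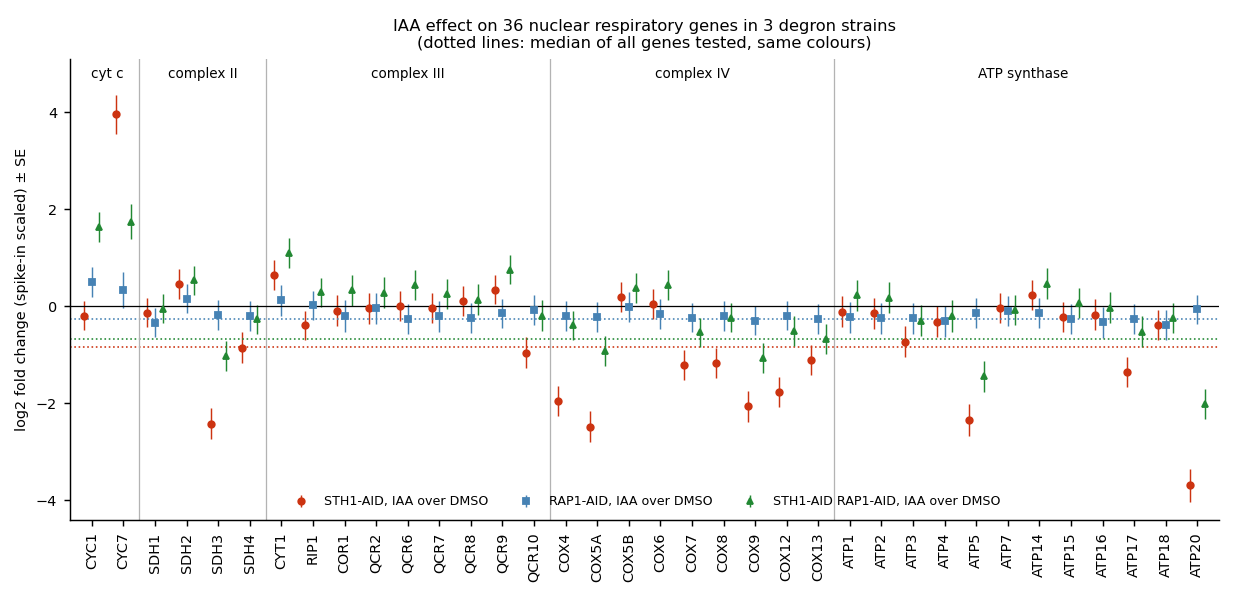
Log2 fold change (IAA over DMSO, spike-in scaling) of each of the 36 genes in the 3 degron strains, grouped by complex, with bars of 1 SE and a dotted line at the median of all genes tested in that strain (-0.84, -0.26 and -0.67). In STH1-AID the points run from -3.69 (ATP20) to 3.96 (CYC7), and in RAP1-AID they lie between -0.38 and 0.50.

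In the ATP synthase, ATP20 (YPR020W, chrXVI:599870-600217, plus strand) fell furthest. Coordinates are those of the listed gene, which in all 36 cases is the coding sequence from start to stop codon with any intron. It encodes subunit g, a small membrane subunit needed for dimers of the enzyme. Its normalised counts were 727, 995 and 1388 with DMSO and 46.2, 115 and 79.9 with IAA in replicates 1, 2 and 3. Every IAA library was below every DMSO library, and the fitted fold change was 13.0-fold lower (log2 -3.69, SE 0.34, adjusted p = 1.92e-24, edgeR). ATP5 (YDR298C, chrIV:1058176-1058814, minus strand), the OSCP subunit that joins the catalytic head to the stator, gave 4477, 5420 and 8026 with DMSO and 920, 1401 and 1208 with IAA, again without overlap. The fold change of ATP5 was 5.08-fold lower (log2 -2.34, SE 0.33, adjusted p = 1.64e-11). ATP17, subunit f of the membrane part, was 2577, 3213 and 4922 with DMSO and 1048, 1827 and 1326 with IAA (log2 -1.35, SE 0.31, adjusted p = 5.69e-05). The groups of ATP17 did not overlap, and it was not called with TMM scaling (-0.47). The other 9 ATP synthase genes were not called and lay between -0.73 (ATP3, the gamma subunit) and 0.23 (ATP14, subunit h). ATP1, the alpha subunit, had 21365, 26581 and 37915 counts with DMSO and 20724, 34799 and 24094 with IAA, with overlapping groups. ATP14 shares its strand with an overlapping listed gene, and fragments over both were counted for both.

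Of the 2 forms of subunit 5 of complex IV, the main one fell and the alternative one was not called on the spike-in scale. COX5A (YNL052W, chrXIV:531725-532186, plus strand) gave 2254, 2626 and 3925 normalised counts with DMSO and 403, 683 and 493 with IAA. The groups were well apart, with a 5.58-fold lower level (log2 -2.48, SE 0.32, adjusted p = 4.05e-13). COX5B (YIL111W, chrIX:155222-155765, plus strand) gave 519, 504 and 645 with DMSO and 534, 758 and 605 with IAA, which overlapped (log2 0.19, SE 0.31, adjusted p = 0.613). COX9 (YDL067C, subunit VIIa), COX4 (YGL187C, subunit IV, which binds zinc) and COX12 (subunit VIb, facing the intermembrane space) also fell. COX9 went from 1664, 2097 and 3106 to 387, 704 and 551, which is 4.18-fold lower (log2 -2.06, SE 0.32, adjusted p = 7.4e-10). COX4 went from 1121, 1338 and 1797 to 259, 497 and 345, or 3.87-fold lower (log2 -1.95, SE 0.31, adjusted p = 3.44e-09). COX12 went from 1155, 1246 and 2128 to 341, 565 and 433 (log2 -1.76, SE 0.31, adjusted p = 9.88e-08). In each of the 3 genes the DMSO and IAA libraries did not overlap. The remaining falls in complex IV were smaller and near the limit on size, although their DMSO and IAA libraries did not overlap. COX7 (log2 -1.21, SE 0.31), COX8 (-1.16, SE 0.31) and COX13 (-1.11, SE 0.31) were called with adjusted p of 0.000222, 0.000431 and 0.000932. Without STH1-AID DMSO replicate 3, the highest DMSO library for all 3 genes, they stood at -0.96, -0.90 and -0.81 and were not called, and COX13 was also lost without STH1-AID IAA replicate 1 (-0.93). The S. pombe size factor of that DMSO library was 0.5827, against 0.9257 and 0.8525 in replicates 1 and 2. A low factor raises the normalised counts of all genes in a library. COX7, COX8, COX12 and COX13 were not called with TMM scaling, where COX5A (-1.61), COX9 (-1.2) and COX4 (-1.11) were still called lower. COX6, with 2127, 2543 and 3489 counts with DMSO and 2120, 3733 and 2560 with IAA, overlapped throughout (log2 0.04, SE 0.31).

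Of the complex II genes, SDH3 fell and the other 3 were not called. SDH3 (YKL141W, chrXI:179667-180263, plus strand) encodes a membrane anchor that holds haem together with Sdh4. Its counts went from 2377, 2740 and 4016 with DMSO to 463, 672 and 575 with IAA, without overlap (5.34-fold lower, log2 -2.42, SE 0.32, adjusted p = 1.48e-12). The other anchor gene, SDH4, gave 1178, 1455 and 2229 with DMSO and 691, 1095 and 914 with IAA. Its groups did not overlap, but its log2 fold change of -0.85 (SE 0.31, adjusted p = 0.0107) did not reach the size required. The catalytic subunits stood at -0.13 (SDH1) and 0.46 (SDH2, the iron-sulphur protein).

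None of the complex III genes was called on the spike-in scale, and for the abundant ones the DMSO and IAA libraries overlapped. QCR7 (YDR529C, chrIV:1496165-1496548, minus strand), a small subunit on the matrix side, had 3082, 3972 and 5090 normalised counts with DMSO and 2821, 5445 and 3653 with IAA (log2 -0.03, SE 0.31). COR1, a core subunit, had 9243, 11959 and 15673 with DMSO and 8937, 15225 and 10500 with IAA (log2 -0.09, SE 0.32). The values of the 9 genes lay between -0.96 (QCR10) and 0.65 (CYT1, cytochrome c1). QCR10 (SE 0.32, adjusted p = 0.00526) was just inside the limit on size and passed it, at -1.01, when the replicate number was added to the fit as a block, which brought the lower calls to 12. QCR9, QCR10 and COX5B each have 1 intron, and fragments across a splice junction were not aligned.

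CYC7 rose while CYC1 was not called. CYC7 (YEL039C, chrV:79636-79977, minus strand) gave 25.9, 34.0 and 32.6 normalised counts with DMSO and 360, 764 and 321 with IAA, so the lowest IAA library was above the highest DMSO library. The fold change was 15.6-fold higher (log2 3.96, SE 0.40, adjusted p = 7.76e-21). CYC1 (YJR048W, chrX:526335-526664, plus strand) gave 1734, 2081 and 2821 with DMSO and 1515, 2530 and 1764 with IAA (log2 -0.19, SE 0.30). With TMM scaling, CYC7 stood at 4.75 and CYT1 (1.48), SDH2 (1.32), QCR9 (1.2), ATP14 (1.09) and COX5B (1.02) were called higher as well. These 5 genes were above 0 on both scales and passed the limits with TMM scaling alone.

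**Figure D2:**
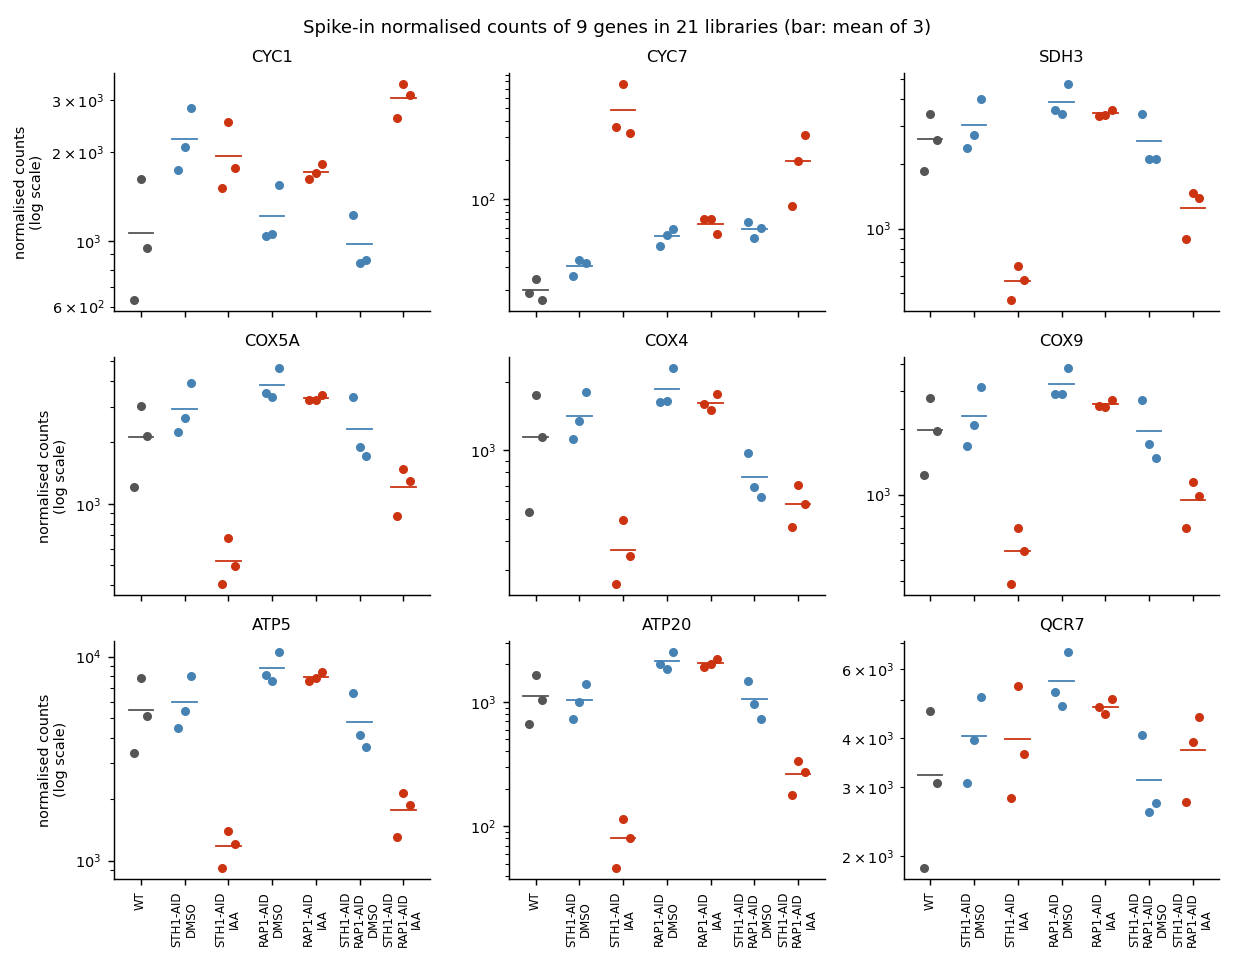
Normalised counts (log axis, scaled by S. pombe) of 9 genes in each of the 21 libraries, with 1 point per library and a bar at the mean of each of the 7 groups. CYC7 in STH1-AID with IAA sits between 321 and 764, above every other library, and ATP20 in the same libraries sits between 46.2 and 115, below every other library.

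Depletion of Rap1 called none of the 36 genes. The share called among all genes was 4.09% lower and 0.4% higher. The 36 log2 fold changes had a median of -0.20 (all genes -0.26) and ran from -0.38 (ATP18, subunit i/j of the ATP synthase) to 0.50 (CYC1). None of them had an unadjusted p under 0.05 in the edgeR fit with spike-in scaling and no block. TMM scaling (0.991% higher and 3.07% lower over all genes) and DESeq2 also called 0. CYC1 missed a call by size only with TMM scaling (log2 0.84, adjusted p = 0.000401, edgeR) and with the replicate block (0.52, adjusted p = 0.00494, edgeR). The ranges of ATP20 were 1855 to 2538 normalised counts with DMSO and 1904 to 2211 with IAA, and those of COX5A 3343 to 4647 and 3217 to 3431. CYC7 gave 43.4, 53.0 and 58.7 with DMSO and 70.2, 70.9 and 53.6 with IAA, with overlapping groups. CYC1 gave 1040, 1056 and 1550 with DMSO and 1618, 1704 and 1822 with IAA, where the groups did not overlap although the gene was not called.

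Depletion of both proteins raised 3 genes and lowered 4. Over all genes 3.49% rose and 32.6% fell, so the 4 that fell were a smaller share than that of all genes. CYC1, CYC7 and CYT1 rose, and ATP20, ATP5, COX9 and SDH3 fell. The median of the 36 was -0.04, against -0.67 over all genes, with 0.29 for complex III and -0.51 for complex IV. CYC1 went from 1227, 839 and 865 normalised counts with DMSO to 2598, 3397 and 3116 with IAA. These groups were apart, and the level was 3.11-fold higher (log2 1.64, SE 0.31, adjusted p = 1.98e-06). CYC7 went from 67.3, 50.6 and 60.0 to 88.3, 197 and 308, with the IAA libraries spread more widely than the DMSO libraries (log2 1.74, SE 0.36, adjusted p = 1.09e-05). CYT1 (YOR065W) went from 1967, 1347 and 1741 to 2602, 3742 and 4489 (log2 1.10, SE 0.31, adjusted p = 0.00143). Its groups did not overlap, but it was not called without STH1-AID RAP1-AID DMSO replicate 2 (0.96) or IAA replicate 3 (0.91).

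Fewer genes were called lower in the double strain than in STH1-AID. ATP20 went from 1474, 962 and 723 to 178, 336 and 272, which did not overlap (4.02-fold lower, log2 -2.01, SE 0.31, adjusted p = 7.26e-09). ATP5 went from 6658, 4136 and 3610 to 1299, 2137 and 1880 (log2 -1.44, SE 0.32, adjusted p = 4.96e-05). COX9 went from 2719, 1698 and 1473 to 705, 1144 and 981 (log2 -1.06, SE 0.31, adjusted p = 0.002), and SDH3 stood at -1.03 (SE 0.31, adjusted p = 0.00284). STH1-AID RAP1-AID DMSO replicate 1 was the highest DMSO library for these genes and IAA replicate 1 the lowest IAA library. Their S. pombe size factors were the lowest with DMSO (0.7579, against 1.3438 and 1.4832) and the highest with IAA (1.677, against 1.3168 and 1.5874). Without that DMSO library, COX9 was -0.75 and SDH3 -0.76, and without that IAA library -0.88 and -0.84, none of them called. Same-numbered DMSO and IAA libraries of this strain deviated together, and with the replicate block 2 genes were called higher and 1 lower. The share of all genes called with the block was not computed. CYC1, CYC7 and ATP20 were still called (adjusted p = 0.0383, 0.0323 and 0.0128), and CYT1, ATP5, COX9 and SDH3 were not (0.163, 0.0754, 0.195 and 0.198). With TMM scaling 8 genes were higher and 1, ATP20, was lower (8.65% and 6.57% of all genes).

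The response to IAA was compared between strains with the interaction term of the same fit, which tests the difference between 2 log2 fold changes. The effect in RAP1-AID was above that in STH1-AID for 8 genes (32.3% of all genes) and below it for 1, CYC7 (6.27% of all genes). The differences of largest size were 3.63 for ATP20 (SE 0.45, adjusted p = 2.07e-13), 2.26 for COX5A (SE 0.44, adjusted p = 4.75e-06), 2.24 for SDH3 (SE 0.44, adjusted p = 5.96e-06), 2.20 for ATP5 (SE 0.45, adjusted p = 1.38e-05) and -3.63 for CYC7 (SE 0.54, adjusted p = 1.49e-09). COX9 (1.76), COX4 (1.75), COX12 (1.57) and ATP17 (1.09) made up the 8, and ATP17 (SE 0.44, adjusted p = 0.0354) was not called without any 1 of 8 of the 12 libraries (0.79 to 1.12). With TMM scaling 7 were above and 3 below (17.3% and 15% of all genes).

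In the double strain the effect of IAA was above that in STH1-AID for CYC1, ATP20, COX4 and COX5A and below it for CYC7, at a background of 1.28% of all genes in each direction. CYC1 differed by 1.83 (SE 0.43, adjusted p = 0.00339) and CYC7 by -2.22 (SE 0.52, adjusted p = 0.00275). ATP20 differed by 1.69 (SE 0.44, adjusted p = 0.0105), COX4 by 1.57 (SE 0.43, adjusted p = 0.0189) and COX5A by 1.55 (SE 0.44, adjusted p = 0.0234). With the replicate block CYC7 was still called (adjusted p = 0.0389), and CYC1, ATP20, COX4 and COX5A were not (0.135, 0.199, 0.287 and 0.313). CYC7 itself was not called without STH1-AID IAA replicate 2 (-1.72), the library with 764 counts. COX5A was lost without any 1 of 7 libraries (1.28 to 1.51), COX4 without any 1 of 4 (1.37 to 1.52), and ATP20 without STH1-AID IAA replicate 1 (1.41) or STH1-AID RAP1-AID IAA replicate 2 (1.47). Without STH1-AID RAP1-AID DMSO replicate 1 the higher calls numbered 10, with no share of all genes computed for that fit. With TMM scaling 6 were above and 1 below (2.96% and 5.85% of all genes). Against RAP1-AID, the double strain was lower for ATP20 (-1.94, SE 0.43, adjusted p = 0.00103) and ATP5 (-1.30, SE 0.45, adjusted p = 0.0396), with 9.79% of all genes lower and 1.5% higher. ATP5 was not called with the block (adjusted p = 0.0981) or without any 1 of 8 of the 12 libraries (-1.34 to -0.98), and ATP20 was called with the block (0.00971). With TMM scaling 5 were above and 1 below (5.9% and 6.4% of all genes). The comparisons share the effect of 1 strain and are not independent of each other.

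The isoform ratios were computed within each library, so they do not depend on how the libraries were scaled. The log2 ratio of COX5A to COX5B counts per kb was 2.6 ± 0.24 in DMSO-treated STH1-AID and -0.05 ± 0.13 after IAA (SD, n = 3 each), a difference of -2.65. In the double strain it was 2.80 ± 0.28 and 1.58 ± 0.19 (difference -1.22), and in RAP1-AID 3.24 ± 0.05 and 3.04 ± 0.11 (difference -0.20). The IAA libraries were below the DMSO libraries without overlap in all 3 strains, and each 2-sided exact permutation test gave p = 0.1, the smallest that 3 against 3 allows (0.171 after adjustment over 12 comparisons). With the labels permuted within strains, the mean change over the 3 strains was -1.36 (exact permutation p = 0.00025, two-sided, 8000 arrangements). This permutation took the libraries as unpaired, although same-numbered libraries of STH1-AID and the double strain deviated together. Keeping the pairs would allow fewer arrangements and was not tested. The mean joins changes of unlike size. In RAP1-AID the highest IAA library (3.17) was barely below the lowest DMSO library (3.18). The coding sequences of COX5A and COX5B are 66.4% identical over 453 aligned bases, and those of CYC1 and CYC7 77.0% over 330. Only uniquely mapped fragments were counted. The listed length of COX5B (544 bases) includes its intron, against 456 bases of coding sequence, and fragments across the splice junction were lost. Its counts per kb can therefore be too low beside those of COX5A, so a log2 ratio near 0 does not mean equal levels. A change in splicing of COX5B was not tested.

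The log2 ratio of CYC1 to CYC7 in STH1-AID was 6.17 ± 0.25 in DMSO and 2.14 ± 0.36 after IAA (n = 3 each, difference -4.03, exact permutation p = 0.1), without overlap. In RAP1-AID the difference was 0.20 (p = 0.5, exact permutation) and in the double strain 0.09 (p = 0.9, exact permutation), with overlapping libraries in both. The mean change over the 3 strains was -1.25 (exact permutation p = 0.0715, libraries again taken as unpaired). In the double strain CYC1 and CYC7 both rose, as given above, and the spread of their ratio went from 0.17 to 0.77 (SD).

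**Figure D3:**
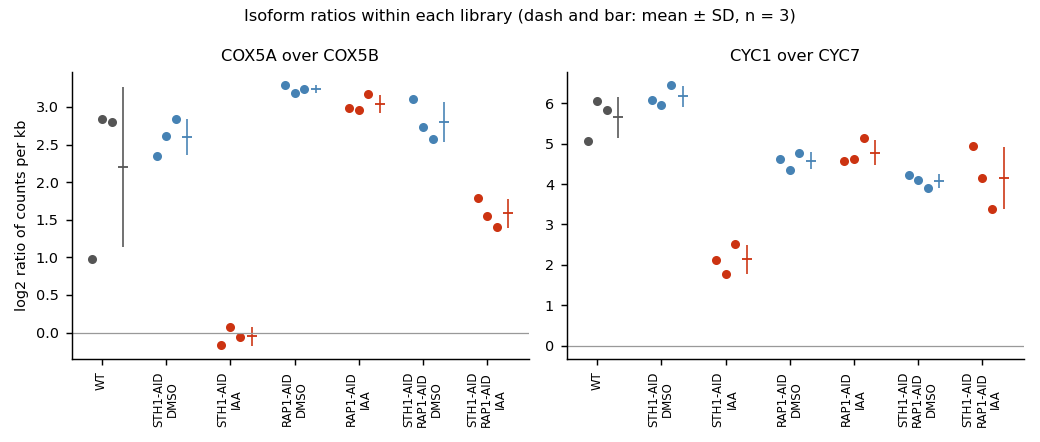
Log2 ratio of counts per kb within a library for COX5A over COX5B and CYC1 over CYC7, with 1 point per library and bars for mean ± SD of each of the 7 groups (n = 3). In STH1-AID the mean COX5A to COX5B ratio is 2.6 with DMSO and -0.05 with IAA, and the mean CYC1 to CYC7 ratio is 6.17 and 2.14.

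Within each library, the 36 genes were also set against the median of all tested genes. The median log2 CPM of the 36 genes stood 0.84 ± 0.14 above that of all genes in DMSO-treated STH1-AID and 1.36 ± 0.19 after IAA (SD, n = 3 each). For the double strain it went from 0.49 ± 0.17 to 1.08 ± 0.18, and in RAP1-AID from 0.67 ± 0.04 to 0.77 ± 0.04. The libraries of each pair did not overlap. Complex III stood at 0.59 to 1.04 with DMSO and at 2.29 to 2.66 with IAA in STH1-AID. Complex IV stood at 0.16 to 0.29 with DMSO and at -0.40 to -0.16 with IAA in the same strain, which is the opposite direction. A median over 9 genes can pass from one gene to another: the middle gene of complex III was CYT1 in the DMSO libraries of STH1-AID and the double strain and QCR6 in most of their IAA libraries, and the median of the 9 fold changes minus that of all genes, 0.82 in STH1-AID and 0.96 in the double strain, was smaller than the step in level. Complex IV went in the double strain from a mean of 0.00 to 0.29, and complex III from 0.31 to 2.03. The share of all counts taken by the 36 genes was 0.604 ± 0.0693% and 0.72 ± 0.0821% in STH1-AID, 0.63 ± 0.0137% and 0.771 ± 0.0203% in RAP1-AID, and 0.531 ± 0.0713% and 0.802 ± 0.098% in the double strain (DMSO and IAA, SD, n = 3 each). These values are descriptions without a test.

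**Figure D4:**
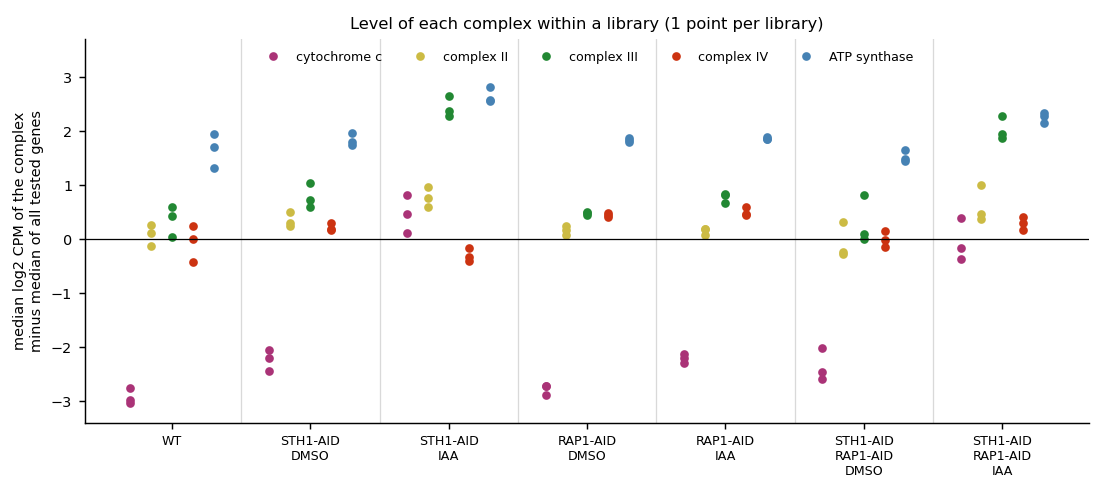
Median log2 CPM of each complex minus the median of all tested genes of the same library, with 1 point per library in the 7 groups. The counts are not per length, so a complex is to be compared across libraries and not with another complex: complex III lies at 2.29 to 2.66 in STH1-AID with IAA, above its other libraries, and complex IV lies between -0.40 and -0.16.

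Before any IAA, 1 of the 36 genes was called in each degron strain against WT. WT cells were untreated, so effects of DMSO, osTIR with its marker and the tag cannot be told apart in these differences. STH1-AID with DMSO had 1 gene called higher and 0 lower than WT (1.04% and 0.352% of all genes), CYC1, at a log2 difference of 1.05 (SE 0.31, adjusted p = 0.0449). CYC1 had 629, 1620 and 950 normalised counts in WT, and the lowest STH1-AID DMSO library, at 1734, was above all 3. With TMM scaling it was also called (1.2% of all genes higher, 0.56% lower). Without WT replicate 1 the difference was 0.78 and not called, and it was also lost without WT replicate 3 (0.98), STH1-AID DMSO replicate 2 (1.09) or replicate 3 (0.84). Neither the replicate block (1.13) nor a fit of only the groups compared called it. CYC7 was called higher in RAP1-AID (1.36, SE 0.42, adjusted p = 0.0101, of 11.9% higher and 0.895% lower over all genes) and in the double strain (1.56, SE 0.41, adjusted p = 0.00311, of 5.21% and 1.71%). Its WT counts were 19.0, 24.5 and 16.7, below the lowest RAP1-AID DMSO library (43.4) and the lowest double DMSO library (50.6). Without WT replicate 1 the differences were 1.32 (not called) and 1.52 (called). The one in the double strain was not called in a fit of only the groups compared (1.56), and 0 of the 36 were called there with the replicate block. The one in RAP1-AID was also lost without WT replicate 3 (1.26) or RAP1-AID DMSO replicate 3 (1.27). With TMM scaling 0 of the 36 were called in RAP1-AID (4.59% and 2.48% of all genes) and CYC7 was called in the double strain (6.33% and 1.81%). For RAP1-AID the median of the 36 genes was 0.66 and of all genes 0.52, and without WT replicate 2 the number of the 36 called higher was 19. The share of all genes called in that fit was not computed, so this number has no background beside it. WT replicate 2 had the lowest S. pombe size factor in WT (0.652, against 1.0537 and 0.7199 in replicates 1 and 3). The 3 comparisons share the WT libraries. WT replicate 1 held the lowest value of COX5A (1210, against 3032 and 2152) and the highest of COX5B (724, against 498 and 364), so the WT log2 ratio of the 2 had a wide spread (2.20 ± 1.06).

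The respiratory chain depends on factors that are not subunits, and these were read in the same fit. After Sth1 depletion many assembly factors were lower on the spike-in scale: 8 of 11 genes for complex III and cytochromes (median -1.75), 5 of 7 for the ATP synthase (median -1.72) and 15 of 25 for complex IV (median -1.07) fell, with 1 of the last rising (COX23, 1.21). Over all genes 42.7% fell. With TMM scaling the lower calls were 4, 2 and 4 and the higher calls 0, 0 and 4, against 15.4% of all genes each way, so as many complex IV factors were higher as lower on that scale. CBP4, an assembly factor of complex III, was at 401 ± 152 normalised counts with DMSO and 28.7 ± 9.49 with IAA (log2 -3.79, SE 0.36, adjusted p = 5.95e-23). ATP25, needed for the ring subunit of the ATP synthase, was at 1210 ± 373 and 188 ± 33.8 (log2 -2.68, SE 0.32, adjusted p = 3.41e-15). COX19, a metal-binding factor of complex IV assembly, was at 461 ± 199 and 61.2 ± 18.3 (log2 -2.91, SE 0.34, adjusted p = 2.35e-16). All 3 genes had groups that did not overlap. The lower calls in the double strain were 6, 4 and 10 in the same order (32.6% of all genes), and with the replicate block 3, 0 and 2. The 32.6% belongs to the fit without the block, and no share with the block was computed.

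For the next lists, the shares over all genes were 42.7% lower and 4.69% higher in STH1-AID, and 32.6% and 3.49% in the double strain. With TMM scaling they were 15.4% each way in STH1-AID, and 6.57% lower and 8.65% higher in the double strain. No such shares were computed with the block. Of the genes that make coenzyme Q, the carrier between the dehydrogenases and complex III, 9 of 11 fell and 0 rose in STH1-AID (median -1.67). CAT5, a hydroxylase of the pathway, was at 1080 ± 341 normalised counts with DMSO and 77.0 ± 18.2 with IAA (log2 -3.81, SE 0.34, adjusted p = 7.76e-26). Of the same 11, 6 fell in the double strain, and with the block 0. With TMM scaling 2 of 11 were lower in STH1-AID and 0 in the double strain. Among the enzymes that feed the chain, 2 of 10 TCA cycle genes fell in STH1-AID (FUM1, fumarase, -1.89, and LSC2, a subunit of succinyl-CoA ligase, -1.52), against 42.7% of all genes. With TMM scaling 3 of the 10 were higher in STH1-AID (CIT1 1.72, IDH1 1.34 and ACO1 1.31) and 1 lower. On the spike-in scale 3 rose in the double strain (ACO1, aconitase, 1.41, CIT1, citrate synthase, 1.35, and IDH1, a subunit of isocitrate dehydrogenase, 1.01), none of them called with the block. Of 6 electron donors to the chain, NDE2, an external NADH dehydrogenase, rose in STH1-AID (1.9, SE 0.42, adjusted p = 1.91e-05) and the others were not called, while with TMM scaling 4 were higher in STH1-AID and 3 in the double strain. Of 8 haem synthesis genes 3 fell in STH1-AID (HEM3, porphobilinogen deaminase, by 2.46 on the log2 scale), a share near that of all genes (42.7%), and 1 was lower with TMM scaling. In the double strain 2 of the 8 fell, and 0 with the block. Of 5 mitochondrial carriers and porin 0 were called in either strain on the spike-in scale, and 2 were higher in each with TMM scaling. Among 7 assembly factors and paralogues of complex II, 3 fell in STH1-AID, a share near that of all genes (42.7%). These were SDH8 (by 2.22 on the log2 scale), SDH5 (by 1.84) and SDH6 (by 1.02), while SDH9 rose (1.87). SDH6 was not called with the replicate block, and with TMM scaling 1, SDH8, was lower and 3 were higher. In the double strain 2 of these 7 fell, also near the share of all genes (32.6%), and 0 with the block.

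Of 5 further ATP synthase subunits and inhibitors outside the 36, 2 fell and 1 rose in STH1-AID. Over all genes 42.7% fell and 4.69% rose, so the share that fell was near that of all genes. ATP19, subunit k, fell (-2.6, SE 0.32, adjusted p = 1.71e-14), as did TIM11, subunit e, which like ATP20 serves dimers of the enzyme (-2.03, SE 0.32, adjusted p = 1.22e-09). STF1, an inhibitor of ATP hydrolysis by the enzyme, rose in all 3 strains. It was at 482 ± 101 normalised counts with DMSO and 1230 ± 349 with IAA in STH1-AID (1.36, SE 0.31, adjusted p = 3.52e-05), at 258 ± 64.0 and 636 ± 29.1 in RAP1-AID (1.30, SE 0.31, adjusted p = 0.000919) and at 165 ± 30.6 and 817 ± 125 in the double strain (2.31, SE 0.32, adjusted p = 7.64e-11). It was also called with TMM scaling and with the block in each. In RAP1-AID the other gene of these lists that was called was COA2, a complex IV assembly factor, at 427 ± 85.1 and 88.1 ± 12.8 (-2.27, SE 0.34, adjusted p = 1.65e-09). Of 7 mitochondrially encoded subunits, 3 had enough counts to be tested in these poly-A selected libraries, and 0 were called in any of the 3 IAA comparisons.

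Among 14 regulators of respiration, HAP3, a subunit of the Hap complex, fell furthest in STH1-AID. Over all genes 42.7% fell and 4.69% rose in that strain. HAP3 was at 394 ± 127 normalised counts with DMSO and 45.7 ± 14.5 with IAA (log2 -3.10, SE 0.35, adjusted p = 4.28e-17). The double strain had 283 ± 83.4 with DMSO and a log2 fold change of -0.04, and the difference between the effects of these strains was 3.07 (adjusted p = 3.38e-08, and 6.81e-05 with the block). In RAP1-AID its log2 fold change was 0.43. HAP2 (-1.05, adjusted p = 0.00188) and RTG1, an activator of the retrograde response (-1.48, adjusted p = 6.55e-06), also fell in STH1-AID, both not called with TMM scaling. HAP4 (-0.67), HAP5 (-0.39), HAP1 (-0.81) and ROX1, the repressor of low-oxygen genes (-0.04), were not called. CAT8 (1.70, adjusted p = 1.16e-05) and ADR1 (1.09, adjusted p = 0.00155), activators known from growth without glucose, rose in STH1-AID. In the double strain CAT8 was at 73.3 ± 1.83 normalised counts with DMSO and 93.0 ± 35.0 with IAA. ADR1 was at 4580 ± 1380 and 8380 ± 1570 there. HAP1 (-1.06) and RTG1 (-1.34) were lower in the double strain, neither with the block. The part of any regulator in the levels of the 36 genes was not tested.

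**Figure D5:**
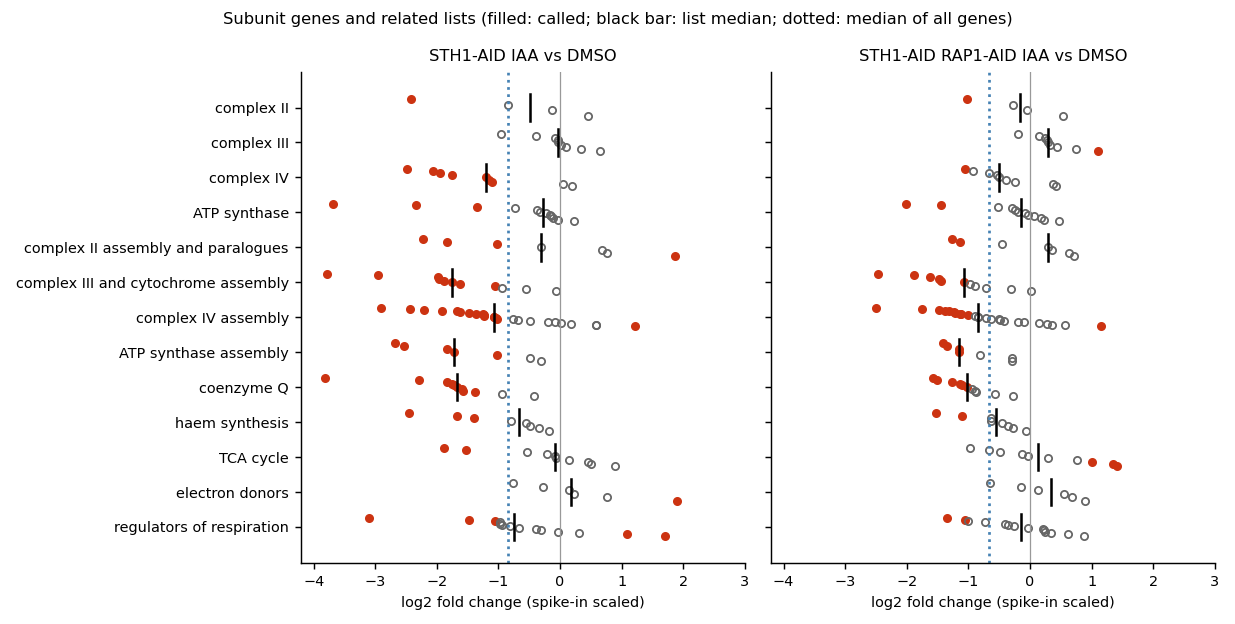
Log2 fold change (IAA over DMSO, spike-in scaling) of the genes of complexes II, III and IV, the ATP synthase and 9 related lists in STH1-AID and the double strain, with filled points for genes called, a bar at the median of each list and a dotted line at the median of all genes tested (-0.84 and -0.67). In STH1-AID the bars of coenzyme Q and of the complex III and ATP synthase assembly factors lie between -1.75 and -1.67, below the dotted line, and those of complex III and of the TCA cycle lie at -0.03 and -0.07, above it.

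Because the study asked about transcription that runs away from promoters, the listed genes across the promoter were read too. For 11 of the 36 genes, the nearest upstream gene lies on the other strand with at most 1000 bases between the starts. After Sth1 depletion 2 of the 11 rose and 2 fell, against 4.69% and 42.7% of all genes. YLR296W, whose start lies 605 bases from that of ATP14, had 1, 1 and 3 raw counts with DMSO and 87, 123 and 97 with IAA. The DMSO libraries were at or below the floor of 3 counts, so the level was at least 23.5-fold higher, by the mean over libraries. ATP14 itself was not called (0.23). YBL044W, 482 bases from COR1, had 11, 5 and 10 raw counts with DMSO and 40, 40 and 47 with IAA (log2 1.72, SE 0.49, adjusted p = 0.0011). COR1 itself stood at -0.09. IDP1, mitochondrial isocitrate dehydrogenase, 439 bases from COX9, fell (-1.61, adjusted p = 2.01e-06), as did MED2, a Mediator subunit, 720 bases from ATP16 (-1.23, adjusted p = 0.000237), and neither was called with TMM scaling.

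YBL044W was also higher in the other strains. It had 10, 3 and 7 raw counts with DMSO and 49, 59 and 40 with IAA in RAP1-AID (log2 2.42, SE 0.50, adjusted p = 5.5e-05), and 5, 10 and 2 against 64, 150 and 75 in the double strain (log2 3.73, SE 0.51, adjusted p = 3.83e-11). The groups did not overlap in either strain. YLR296W rose in the double strain, from 9.24, 8.19 and 3.37 to 43.5, 69.1 and 47.2 normalised counts (log2 2.98, SE 0.49, adjusted p = 4.03e-08), and was not called in RAP1-AID (-0.61). ANB1, 954 bases from CYC1, was called lower in RAP1-AID (-1.08, SE 0.35, adjusted p = 0.0463) but in none of the 6 fits that left out 1 of its libraries. IDP1 fell in the double strain (-1.05, adjusted p = 0.00273), not with the block (0.213).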

How the data were processed

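mRNA-seq was measured in 21 libraries, 3 for each of 7 groups named in the labels. The deposited values are raw counts per gene for S. cerevisiae and S. pombe. Per the labels and the study's methods, the authors trimmed reads with cutadapt 1.9.1, aligned them with BWA 0.5.9-r16 to each species' genome separately (R64-1-1 for S. cerevisiae), kept unspliced, uniquely mapped pairs and counted them on the reverse strand with featureCounts of Subread 1.5.1, with fragments over 2 genes counted for both. Cells were treated for 2 h, and S. pombe cells were added in a defined ratio to the S. cerevisiae cells. Spliced fragments are lost, and a fall shared by all genes is kept by the spike-in. Gene names and sequences came from RefSeq R64, with which 6008 of 6692 identifiers matched and all 36 genes shared coordinates.

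The counts of the 6254 genes kept by filterByExpr were fitted with edgeR 4.0.16 (R 4.3.3), quasi-likelihood, 1 coefficient per group, with library sizes set by S. pombe median-of-ratios size factors and p-values adjusted by Benjamini and Hochberg over all genes. SE is the size of the log2 fold change divided by the square root of F. Isoform ratios added 0.5 to each count. The alternatives were TMM, S. pombe totals, DESeq2 1.42.0, no filter, only the groups compared, a replicate block, leaving out each replicate, 1 added to each count, and, chosen after seeing the data, the block with TMM. Same-numbered DMSO and IAA libraries correlated in their deviations from the group means in STH1-AID (0.183 to 0.373) and the double strain (0.614 to 0.733), so their numbers were taken to pair the libraries, while in RAP1-AID 1 pair was at 0.068. Genes were named by rule: up to 10 called genes of largest change per direction (5 in interactions, 3 in a related list), the largest and smallest where none was called, and always the isoform pairs. Values of other genes are given by their range or as examples chosen after their values were seen. The 36 genes and the related lists were chosen with earlier results of these data known. The edgeR p-values set a difference against the spread between replicate libraries. The main fit estimated that spread over all 21 libraries, without the pairing. Shares of all genes were computed for the main fit and with TMM only. Counts from the block and from leaving out a replicate therefore have no share beside them. The script was tested on simulated data.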

Additional observations from a re-analysis of the deposited data

Results flagged for a closer look

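The effect of IAA differed between strains for the following genes by the interaction test of the edgeR fit, at an adjusted p under 0.05 and a difference beyond 1 on the log2 scale. RAP1-AID minus STH1-AID was -3.63 for CYC7, 2.24 for SDH3, 1.75 for COX4, 2.26 for COX5A, 1.76 for COX9, 1.57 for COX12, 2.20 for ATP5, 1.09 for ATP17 and 3.63 for ATP20. The double strain minus STH1-AID was 1.83 for CYC1, -2.22 for CYC7, 1.57 for COX4, 1.55 for COX5A and 1.69 for ATP20. The double strain minus RAP1-AID was -1.30 for ATP5 and -1.94 for ATP20. The STH1-AID libraries also differ from all others in MET17, as given above, and the part of that difference in these values was not tested.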

How the results depend on the processing

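None of the calls on the 36 genes turned direction under the alternatives run. Of 38 such calls over the 9 comparisons, all 38 stayed called with S. pombe totals and without the filter, 37 with DESeq2, 32 with only the groups compared, and 27 each with TMM, the replicate block, and both. With TMM the calls were 6 higher and 6 lower in STH1-AID, 8 and 1 in the double strain, 0 higher in RAP1-AID DMSO against WT, 3 lower in RAP1-AID minus STH1-AID, and 5 higher and 1 lower in the double strain minus RAP1-AID. With the block and TMM together these were 5 and 6, 8 and 1, 0, 2, and 6 and 1. With the replicate block alone, 1 gene was lower in the double strain, 0 were higher in STH1-AID DMSO and the double strain DMSO against WT and in the double strain minus STH1-AID, 6 were higher in RAP1-AID DMSO against WT, and 1 was lower in the double strain minus RAP1-AID. The numbers of WT and RAP1-AID libraries did not pair them. With only the groups compared, 0 were higher in STH1-AID DMSO and the double strain DMSO against WT and in the double strain minus STH1-AID, and 2 in the double strain minus RAP1-AID. S. pombe totals gave 2 higher in RAP1-AID DMSO against WT. Among these alternatives, shares of all genes were computed with TMM alone. The causes were not tested.

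Leaving out 1 replicate gave 8 to 13 lower and 1 higher in STH1-AID, 2 to 5 lower and 2 to 3 higher in the double strain, and 0 in RAP1-AID. Against WT it gave 0 to 2 higher in STH1-AID, 0 to 19 in RAP1-AID and 1 in the double strain. No shares of all genes were computed for these fits. In the interactions it gave 7 to 11 higher and 1 lower for RAP1-AID minus STH1-AID, 1 to 10 higher and 0 to 1 lower for the double strain minus STH1-AID, and 0 to 1 higher and 1 to 2 lower for the double strain minus RAP1-AID. The log2 COX5A to COX5B difference (IAA minus DMSO) ran from -2.77 to -2.53 in STH1-AID, -0.26 to -0.16 in RAP1-AID and -1.33 to -1.07 in the double strain, with a mean over strains of -1.40 to -1.30. Against WT it ran from -0.22 to 0.72, 0.42 to 1.35 and -0.02 to 0.91 in the same order, with the sign reversed without WT replicate 1 in STH1-AID (-0.22) and the double strain (-0.02). The log2 CYC1 to CYC7 difference ran from -4.21 to -3.85, 0.02 to 0.30 and -0.30 to 0.47, with a mean over strains of -1.38 to -1.12, and against WT from 0.23 to 0.72, -1.36 to -0.87 and -1.87 to -1.38. In the double strain it was -0.30 without IAA replicate 1 and 0.00 without DMSO replicate 3. Depth limits YLR296W and YBL044W, with under 12 raw counts in every DMSO library. Raw counts in STH1-AID with DMSO were also low for SDH9 (6 to 10), NDE2 (11 to 26) and CYC7 (19 to 29).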
